A study of Homo sapiens with 6 samples.

Results

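The genes described here encode the aminoacyl-tRNA synthetases and the scaffold of the multisynthetase complex. They were picked by gene symbol, by a rule that uses no measured value although earlier results of these data were known. Of the 33496 genes listed for each library, 38 carried one of these symbols: 19 genes of cytosolic enzymes, 16 of mitochondrial enzymes and 3 of scaffold proteins (AIMP1, AIMP2 and EEF1E1). Each symbol was found once per file, and all 38 genes had a mean of at least 1 FPKM (sequenced fragments of a gene, divided by transcript length and by the number mapped in that library), so none was lost to the minimum used for testing.

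The libraries were bulk RNA-seq of wild-type ARPE-19, an established human cell line derived from retinal pigment epithelium (RPE). All 6 libraries came from cells given erastin, an inhibitor of the cystine transporter system xc- that triggers ferroptosis, at 5 µM for 24 h. The Era group (n = 3) had erastin alone, and the Era+VK group (n = 3) had vitamin K1 (VK1) at 10 µM added 1 h before erastin. No library of cells free of erastin was analysed here, and the values show the difference between erastin with VK1 and erastin alone. One label names the line of the other 5 libraries with a number that counts up from ARPE-19, while every title gives ARPE-19. The study describes its experiments in general as independent repeats, but the labels do not say how the 3 libraries of a group relate to cultures, so p-values measure the spread between these samples, part of which may be technical.

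Facts of the libraries that bear on the values are few. Each library had between 11924 and 12027 genes at 1 FPKM or more, mitochondrially encoded genes held 15.979 to 18.51% of the FPKM sum, and the correlation of log2 levels between any pair of libraries, across genes, was 0.9927 to 0.9955. FPKM keeps no read total, so the depth behind a value is unknown. Among 14 RPE markers found in the files, KRT8 (171 to 209 FPKM), KRT18 (222 to 246 FPKM), OTX2 (27.5 to 31.4 FPKM) and MITF (15.5 to 18.6 FPKM) were present, while RPE65 did not exceed 0.02 FPKM, TYR 0.17 FPKM and RLBP1 0.29 FPKM. The pigment gene PMEL was at 1.07 to 1.42 FPKM, and BEST1, an RPE chloride channel, was uneven between replicates, at 2.65, 0.65 and 56.98 FPKM in Era and at 36.45, 0.6 and 4.8 FPKM in Era+VK. RPE65, TYR and RLBP1, which define visual cycle and pigment function, were therefore near 0, but not every RPE marker was. A set of 14 erythroid markers, mainly globins, summed to between 0.31 and 0.63 FPKM in Era and to 0.4 FPKM in Era+VK replicate 1, but to 240.62 and 233.6 FPKM in Era+VK replicates 2 and 3, led by the gamma globin HBG2 at 101.77 and 100.25 FPKM. Because of this, the main changes are also given with Era+VK replicate 1 as the sole Era+VK library. Endothelial markers (5 genes) stayed under 1 FPKM each in every library. Among the leukocyte markers, PTPRC and CD14 did not exceed 0.14 FPKM, while CD68, a lysosomal protein abundant in macrophages, was at 50.72, 49.63 and 43.27 FPKM in Era and at 34.52, 38.38 and 35.97 FPKM in Era+VK, lower without overlap. The leukocyte sum was 43.35 to 50.86 FPKM in Era and 34.6 to 38.44 FPKM in Era+VK, and its part in the results was not tested.

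Aminoacyl-tRNA synthetases join each amino acid to its transfer RNA (tRNA), the step that lets the ribosome read the genetic code. Human cells hold a cytosolic and, for most amino acids, a separate mitochondrial enzyme, both encoded in the nucleus. GARS1 and KARS1 each give rise to forms for both compartments and are counted here among the cytosolic genes. Several cytosolic enzymes sit together in the multisynthetase complex, which AIMP1, AIMP2 and EEF1E1 hold in shape. Shortage of an amino acid leaves tRNAs uncharged, which activates the kinase GCN2, raises translation of the transcription factor ATF4 and thereby transcription of amino acid synthesis, transport and charging genes. ATF4 with a partner of the C/EBP family is known to bind a composite element whose core can be written TGATGNAA.

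The letters TGATGNAA were searched on both strands of the promoter windows that RefSeq gives for GRCh38.p14, each running from 250 bases before to 50 bases after a transcription start. Windows were matched by symbol for 33 of the 38 genes, all but AARS2, LARS1, VARS1, VARS2 and YARS1. The motif was found in 8 of these 33 genes, beside 1217 of the 27305 genes with a window in the whole table (4.46%). Of the cytosolic genes 7 of 16 held it, of the mitochondrial genes 1 of 14, and of the scaffold genes 0 of 3. The stretches of 30 bases below are shown because 6 of them lie at enzymes that were lower in Era+VK at an adjusted p under 0.05, and because CARS1 and YARS2 are the remaining matches. Each is read 5′ to 3′ along its gene, with the motif or its reverse complement in capitals.

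AARS1: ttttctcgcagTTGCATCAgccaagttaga
CARS1: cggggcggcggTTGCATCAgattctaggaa
GARS1: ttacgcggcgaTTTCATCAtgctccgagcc
IARS1: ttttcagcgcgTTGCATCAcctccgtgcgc
MARS1: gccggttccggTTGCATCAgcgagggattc
NARS1: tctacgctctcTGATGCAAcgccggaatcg
TARS1: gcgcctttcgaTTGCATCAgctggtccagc
YARS2: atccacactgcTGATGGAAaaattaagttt

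On GRCh38.p14 these stretches are chr16:70289675-70289704 (minus strand, AARS1), chr11:3057407-3057436 (minus, CARS1), chr7:30594834-30594863 (plus, GARS1), chr9:92293692-92293721 (minus, IARS1), chr12:57488053-57488082 (plus, MARS1), chr18:57621804-57621833 (minus, NARS1), chr5:33440956-33440985 (plus, TARS1) and chr12:32756076-32756105 (minus, YARS2). Counting the first transcribed base as 1, the motif spanned bases -33 to -26 in GARS1, -13 to -6 in IARS1, -4 to 4 in MARS1, -2 to 6 in CARS1, 3 to 10 in TARS1 and 15 to 22 in NARS1. It lay far upstream in AARS1, at -187 to -180, and in YARS2, at -197 to -190. In AARS1, CARS1, IARS1, MARS1 and TARS1 the capitals are the same letters, TTGCATCA, the reverse complement of TGATGCAA, which NARS1 carries in the direction of the gene. GARS1 and YARS2 have another base at the free position. A match is a description of letters and not of a bound site, and CARS1, GARS1 and TARS1 each have 2 windows of which 1 holds the match.

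**Figure D1:**
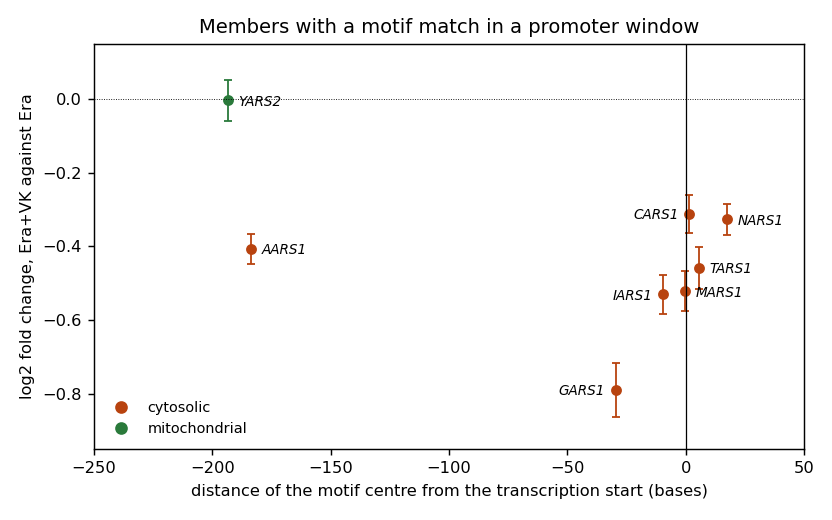
Log2 fold change of FPKM + 1 between Era+VK and Era (vertical axis, bars are ± 1 standard error) against the distance in bases of the motif centre from the transcription start (horizontal axis) for the 8 genes whose promoter window holds TGATGNAA. The 6 cytosolic genes other than AARS1 lie within 50 bases of the start in RefSeq. AARS1 and the mitochondrial YARS2 lie near the far end of the window, and YARS2 alone is at a change near 0.

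The comparison of Era+VK with Era asks what VK1 pretreatment did to the transcripts of the charging enzymes in erastin-treated cells. Transcripts of 9 synthetases counted as cytosolic fell in Era+VK, led by GARS1, which serves both compartments, and WARS1. None of the 16 genes of separate mitochondrial enzymes passed the test. Summed over the 19 cytosolic genes, the level was 531.38, 533.19 and 544.2 FPKM in Era and 411.09, 442.62 and 438.65 FPKM in Era+VK, a mean of 536 ± 6.94 against 431 ± 17.2 (SD, n = 3 each), or 19.7% less. The Era+VK sums all lay below the Era sums. Summed over the 16 mitochondrial genes, the level was 108.71, 104.39 and 108.05 FPKM in Era and 108.52, 106.34 and 103.96 FPKM in Era+VK, a mean of 107 ± 2.33 against 106 ± 2.28 (SD, n = 3 each). These overlapped and differed by less than their SD. In bulk RNA, less transcript per cell and fewer cells that hold the transcript cannot be told apart.

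Genes were tested with limma on log2(FPKM + 1), and each log2 fold change is one of FPKM + 1, so that genes of low level appear to change less than they do. Of the 19 cytosolic genes, 9 fell at an adjusted p under 0.05 (Benjamini-Hochberg over all 11981 genes tested) and 0 rose, with 1 higher at an unadjusted p under 0.05 (QARS1). Over all genes tested, 58 (0.484%) fell and 16 (0.134%) rose by the same rule, and 1241 were higher at an unadjusted p under 0.05. In 14 of 19 cytosolic genes every Era+VK library was below every Era library, as in 843 (7.04%) of all genes tested, and in 1 gene, QARS1, every Era+VK library was above, as in 1807 (15.1%) of all genes tested. The median log2 fold change of the cytosolic genes was -0.32 (range -0.79 to 0.17), beside 0.03 over all genes tested. Of the mitochondrial genes 8 had a negative and 8 a positive log2 fold change, their median was 0.003, and 0 passed the limma threshold, with 0 at an unadjusted p under 0.05. Taken library by library against the mean of Era, the median difference of the cytosolic genes was -0.40, -0.31 and -0.30 in the Era+VK replicates.

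**Figure D2:**
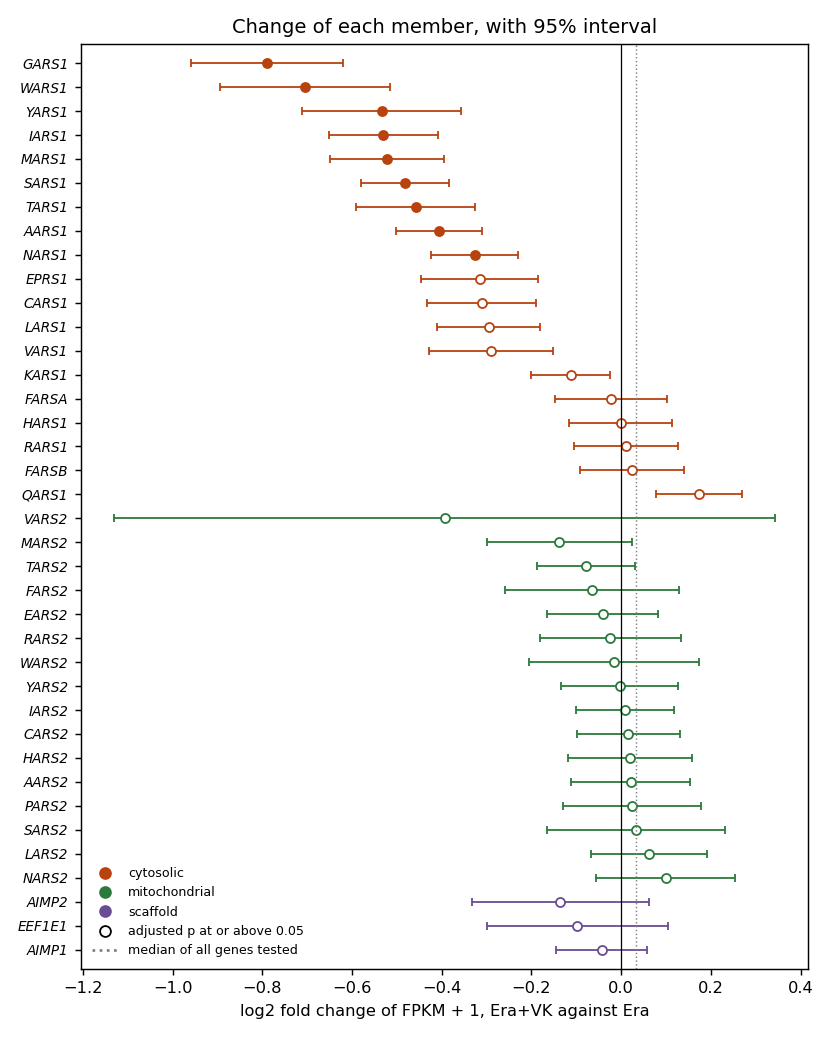
Log2 fold change of FPKM + 1, Era+VK against Era (horizontal axis), for each of the 38 genes, with bars for the 95% interval from limma, colours for the class, filled points for an adjusted p under 0.05 and a dotted line for the median of all genes tested (0.03). The 9 filled points are cytosolic and run from -0.79 for GARS1 to -0.33 for NARS1, while the mitochondrial points other than VARS2 lie between -0.14 and 0.10.

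GARS1, which encodes glycyl-tRNA synthetase of both compartments (ENSG00000106105, chromosome 7, 30594681 to 30634033), had the largest log2 fold change in size of the 38 genes in this test. It was at 17.61, 18.05 and 19.35 FPKM in Era and at 9.24, 10.08 and 11.31 FPKM in Era+VK. The groups were far apart, with a mean of 18.3 ± 0.905 against 10.2 ± 1.04 FPKM (SD, n = 3 each). The log2 fold change was -0.79 (standard error 0.073, limma adjusted p = 0.0109). WARS1, the tryptophanyl enzyme (chromosome 14, 100333788 to 100376805), which interferon is known to induce, was at 37.28, 35.00 and 37.84 FPKM in Era and at 19.30, 23.24 and 24.13 FPKM in Era+VK. All 3 Era+VK libraries were low, and replicate 1 was the lowest. Its log2 fold change was -0.70 (standard error 0.081, limma adjusted p = 0.0189).

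YARS1, the tyrosyl enzyme (chromosome 1, 32775237 to 32818153), was at 13.14, 13.56 and 14.58 FPKM in Era and at 8.12, 9.62 and 9.90 FPKM in Era+VK. The groups did not overlap, and the log2 fold change was -0.53 (standard error 0.076, limma adjusted p = 0.0328). IARS1, the isoleucyl enzyme of the multisynthetase complex (chromosome 9, 92210207 to 92293756), was at 18.34, 18.12 and 18.91 FPKM in Era and at 11.63, 12.82 and 13.01 FPKM in Era+VK. The Era libraries differed by less than 1 FPKM, and the Era+VK libraries were all lower by more than 5 FPKM. Its log2 fold change was -0.53 (standard error 0.052, limma adjusted p = 0.0125). MARS1, the methionyl enzyme of the complex (chromosome 12, 57475445 to 57517569), which charges both the initiator and the elongator methionine tRNA of the cytosol, was at 27.75, 28.04 and 28.00 FPKM in Era and at 17.66, 19.96 and 19.91 FPKM in Era+VK. The Era libraries were nearly equal and well above Era+VK, with a log2 fold change of -0.52 (standard error 0.054, limma adjusted p = 0.0128).

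SARS1, the seryl enzyme, which also charges the selenocysteine tRNA with serine (chromosome 1, 109213918 to 109238169), was one of the most abundant of these transcripts, at 61.04, 59.07 and 61.20 FPKM in Era and at 41.46, 43.39 and 44.10 FPKM in Era+VK. The groups were apart by more than 10 FPKM, and the log2 fold change was -0.48 (standard error 0.042, limma adjusted p = 0.0109). TARS1, the threonyl enzyme (chromosome 5, 33440696 to 33469539), was at 33.39, 36.05 and 36.68 FPKM in Era and at 23.85, 26.38 and 26.20 FPKM in Era+VK. No Era+VK library reached the lowest Era library, and the log2 fold change was -0.46 (standard error 0.057, limma adjusted p = 0.0209).

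AARS1, the alanyl enzyme (chromosome 16, 70252295 to 70289543), was at 17.26, 17.77 and 17.52 FPKM in Era and at 12.61, 13.17 and 13.14 FPKM in Era+VK. Both groups were tight, and the log2 fold change was -0.41 (standard error 0.041, limma adjusted p = 0.0125). NARS1, the asparaginyl enzyme (chromosome 18, 57600656 to 57622213), had the highest level per length of the 38 genes, at 69.11, 68.59 and 71.19 FPKM in Era and at 53.60, 56.89 and 55.47 FPKM in Era+VK. The groups did not overlap. Its log2 fold change of -0.33 (standard error 0.042, limma adjusted p = 0.0213) was the smallest of the 9. In FPKM means, the 9 genes were lower by 20.6 to 44.3%.

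**Figure D3:**
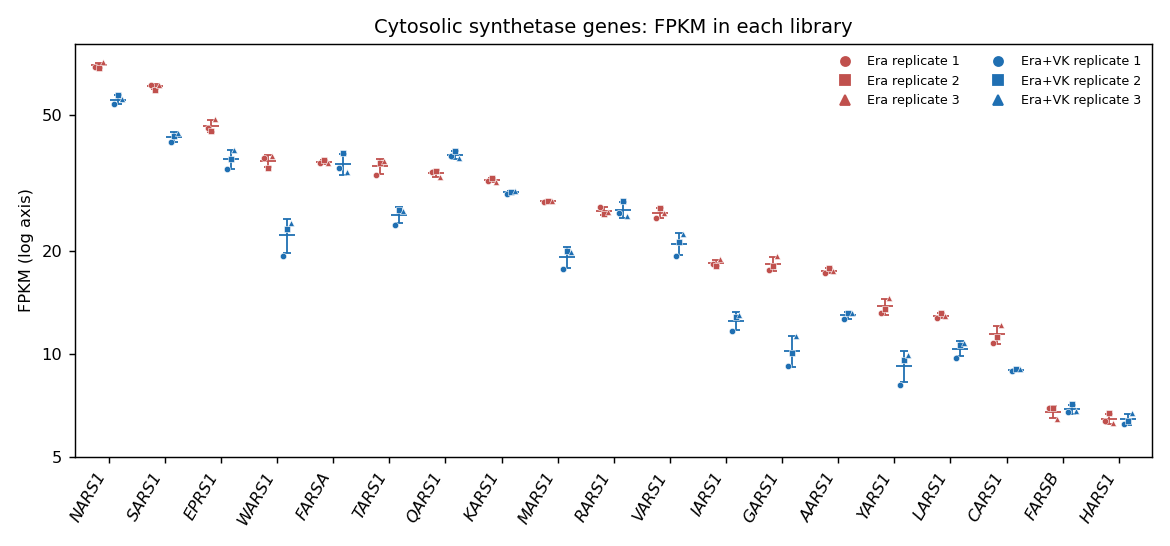
FPKM (log axis) of the 19 cytosolic synthetase genes in each library, ordered by the Era mean, with Era in red and Era+VK in blue, marker shapes for the replicates, and bars for the mean ± SD of 3 libraries. Era+VK replicate 1 (blue circles) is the lowest Era+VK library in 16 of the 19 genes, and QARS1 is the gene whose blue points all lie above the red ones.

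A further 4 cytosolic enzymes were lower in every Era+VK library without passing the adjusted threshold, each at an unadjusted p under 0.05. EPRS1, which carries the glutamyl and the prolyl enzyme in 1 chain, was at 45.76, 44.80 and 48.47 FPKM in Era and at 34.80, 37.05 and 39.35 FPKM in Era+VK (log2 fold change -0.32, standard error 0.056, limma adjusted p = 0.0628). CARS1, the cysteinyl enzyme, was at 10.79, 11.24 and 12.16 FPKM in Era and at 8.89, 9.02 and 9.03 FPKM in Era+VK (log2 fold change -0.31, standard error 0.052, limma adjusted p = 0.0527). LARS1, the leucyl enzyme, which also senses leucine for mTORC1, was at 12.72, 13.17 and 12.94 FPKM in Era and at 9.75, 10.61 and 10.74 FPKM in Era+VK (log2 fold change -0.30, standard error 0.049, limma adjusted p = 0.0527). VARS1, the valyl enzyme, was at 24.97, 26.72 and 25.83 FPKM in Era and at 19.34, 21.25 and 22.38 FPKM in Era+VK (log2 fold change -0.29, standard error 0.060, limma adjusted p = 0.0872). In none of the 4 did the groups overlap. KARS1, the lysyl enzyme of both compartments, also had groups apart, at 31.94, 32.66 and 31.87 against 29.37, 29.79 and 29.83 FPKM, but by little (log2 fold change -0.11, limma adjusted p = 0.218).

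The other 5 cytosolic genes were FARSA, FARSB, HARS1, RARS1 and QARS1. FARSA and FARSB, the 2 subunits of the phenylalanyl enzyme, had means of 36.4 ± 0.422 against 35.8 ± 2.45 and of 6.77 ± 0.289 against 6.90 ± 0.206 FPKM (SD, n = 3 each, Era against Era+VK). HARS1, the histidyl enzyme, was at 6.46 ± 0.229 and 6.45 ± 0.240 FPKM, and RARS1, the arginyl enzyme, at 26.1 ± 0.668 and 26.4 ± 1.44 FPKM. In each of these 4 genes the groups overlapped, the log2 fold changes lay between -0.02 and 0.02, and their 95% intervals reached from -0.15 to 0.14, which holds none of the changes of the 9 called genes. QARS1, the glutaminyl enzyme, was at 33.93, 34.27 and 32.85 FPKM in Era and at 37.80, 39.22 and 37.31 FPKM in Era+VK. Every Era+VK library was above every Era library, with a log2 fold change of 0.17 (standard error 0.041) that did not pass the threshold (limma adjusted p = 0.123). TGATGNAA was in none of the windows of these 5 genes, nor in those of EPRS1 and KARS1, which were lower without overlap, or of SARS1 and WARS1, which were called. It was found in the other 6 of the 8 called genes that had a window and in CARS1.

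Genes that fell were found both inside and outside the multisynthetase complex. Of the 7 enzymes of the complex, 5 were lower without overlap and 2 were called (IARS1 and MARS1), with a median log2 fold change of -0.30. The other 2 were RARS1 and QARS1. Of the 12 other cytosolic genes 9 were lower without overlap and 7 were called, with a median of -0.37. The 2 structural classes of synthetase, whose catalytic folds differ, had medians of -0.31 for the 10 class I genes, with EPRS1 counted there, of which 4 were called, and -0.33 for the 9 class II genes, of which 5 were called. No difference between these subsets was tested.

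The mitochondrial enzymes were expressed at lower levels per length than the cytosolic ones, with a median Era mean of 4.44 FPKM against 26.1 FPKM. IARS2, the isoleucyl enzyme, stood apart at 37.51, 34.29 and 36.76 FPKM in Era and 37.16, 36.42 and 35.63 FPKM in Era+VK, which overlapped. At the other end NARS2, the asparaginyl enzyme, was at 1.17, 1.04 and 1.12 FPKM in Era and 1.23, 1.23 and 1.32 FPKM in Era+VK. NARS2 was the 1 mitochondrial gene whose groups did not overlap, with the higher level in Era+VK (log2 fold change 0.10, limma adjusted p = 0.507), and none of the 16 was lower without overlap. Over all genes tested these shares were 15.1% and 7.04%, so 1 and 0 of 16 are no more than the background. The lowest adjusted p of the class was 0.385, for MARS2, the methionyl enzyme, at 3.96 ± 0.171 and 3.52 ± 0.362 FPKM (SD, n = 3 each).

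VARS2, the valyl enzyme, had the largest log2 fold change in size of its class and the widest spread of the 38 genes. It was at 2.01, 1.16 and 2.37 FPKM in Era and at 1.93, 0.25 and 1.64 FPKM in Era+VK. Replicate 2 was the lowest library in each group, and the groups overlapped. The log2 fold change was -0.39 (standard error 0.317, limma adjusted p = 0.584), and it was -0.0088 without Era+VK replicate 2. For the other 15 mitochondrial genes the log2 fold changes lay between -0.14 and 0.10, and all their 95% intervals were within -0.30 and 0.25.

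**Figure D4:**
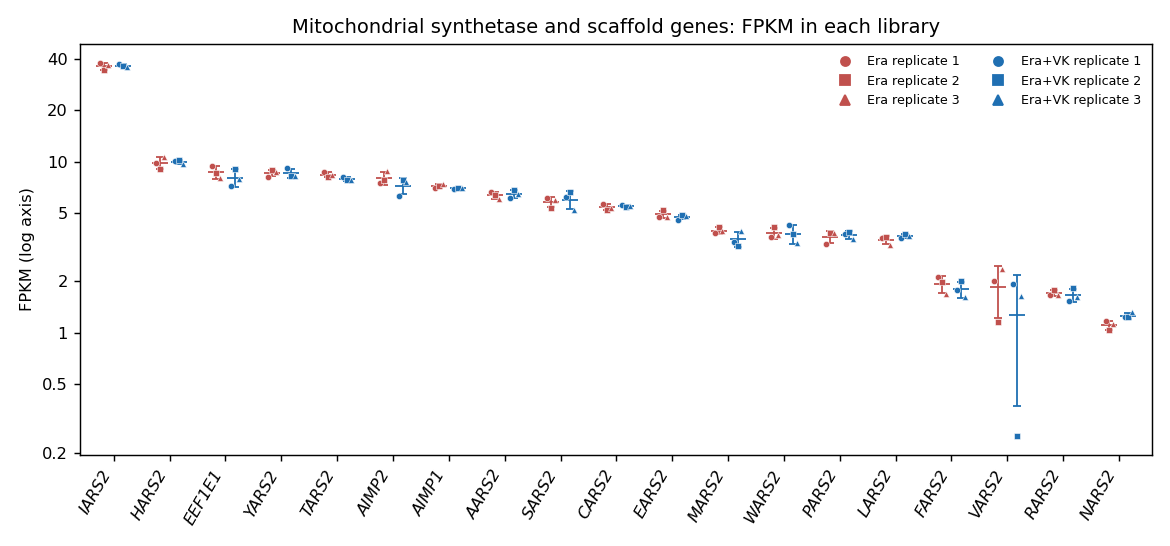
FPKM (log axis) of the 16 mitochondrial synthetase genes and the 3 scaffold genes in each library, ordered by the Era mean, with Era in red and Era+VK in blue, marker shapes for the replicates, and bars for the mean ± SD of 3 libraries. Red and blue points overlap in all but NARS2 and AIMP1, and the blue square at 0.25 FPKM is VARS2 in Era+VK replicate 2.

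Setting the enzymes for the same amino acid side by side gave 17 pairs of a cytosolic and a mitochondrial gene, with EPRS1 and FARS2 each in 2 of them. In 13 pairs the log2 fold change of the cytosolic gene was below that of the mitochondrial gene. The widest gaps were for tryptophan, where WARS1 was at -0.70 and WARS2 at -0.02, isoleucine (-0.53 and 0.01), tyrosine (-0.53 and -0.003) and serine (-0.48 and 0.03). As a ratio of FPKM taken in each library, WARS1 to WARS2 was 9.63 ± 1.03 in Era and 5.98 ± 1.37 in Era+VK, SARS1 to SARS2 was 10.4 ± 0.518 and 7.25 ± 1.09, and NARS1 to NARS2 was 62.9 ± 3.49 and 43.95 ± 2.14 (SD, n = 3 each). The cytosolic gene had the higher FPKM in 15 of 17 pairs in both groups. The exceptions were histidine, where HARS1 to HARS2 stayed at 0.66 ± 0.072 and 0.647 ± 0.0439, and isoleucine, where IARS1 to IARS2 was 0.511 ± 0.0200 in Era and 0.343 ± 0.0271 in Era+VK. HARS1 and HARS2 lie head to head on chromosome 5, with starts in RefSeq 85 bases apart on opposite strands. Whether the counting used strand is not given in the sources used here.

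**Figure D5:**
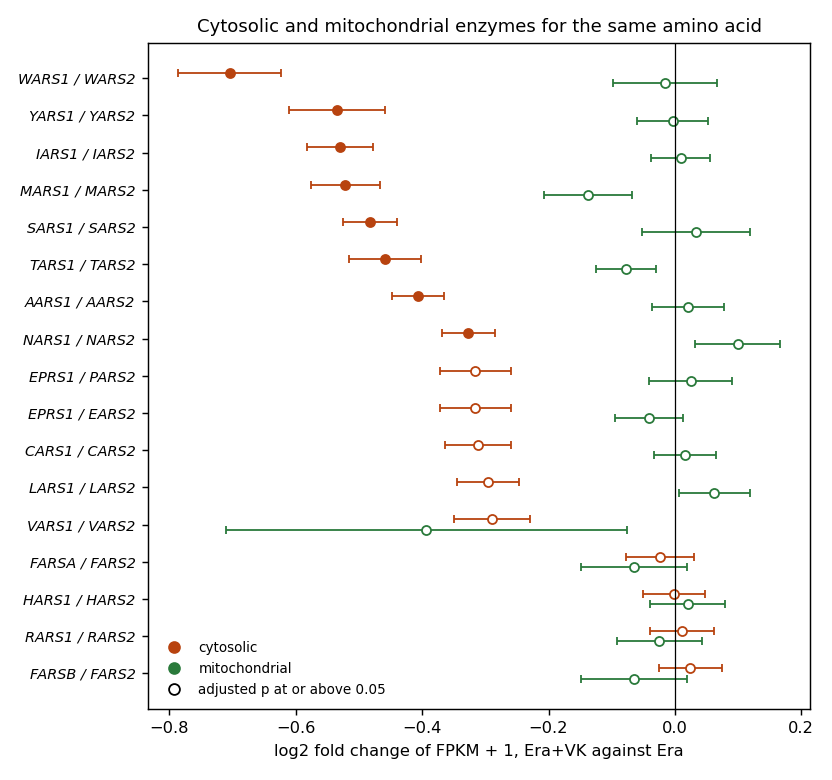
Log2 fold change of FPKM + 1, Era+VK against Era (horizontal axis, bars are ± 1 standard error), for the cytosolic (orange) and mitochondrial (green) gene of each of 17 pairs, ordered by the cytosolic value, with filled points for an adjusted p under 0.05. The orange points spread from -0.70 to 0.02, while the green points other than VARS2 stay near 0.

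The 3 scaffold genes had negative log2 fold changes that did not pass the threshold, with 0 at an unadjusted p under 0.05 in limma. AIMP1, which also gives the secreted cytokine EMAP II, was at 7.04, 7.25 and 7.41 FPKM in Era and at 6.95, 6.98 and 7.03 FPKM in Era+VK. Its groups did not overlap, but the difference was small (log2 fold change -0.04, limma adjusted p = 0.669). AIMP2 was at 7.52, 7.77 and 8.80 against 6.32, 7.80 and 7.58 FPKM, and EEF1E1 (AIMP3) at 9.46, 8.54 and 8.03 against 7.18, 9.07 and 7.93 FPKM, both with overlapping groups. Their log2 fold changes were -0.14 and -0.10, and the median of the 3 was -0.10. These values rested on single libraries: the median was -0.04 without Era+VK replicate 1, -0.06 without Era replicate 1 and -0.18 without Era+VK replicate 2. AIMP2 was at -0.05 without Era+VK replicate 1 and -0.07 without Era replicate 3, and EEF1E1 at -0.03 without Era+VK replicate 1, -0.04 without Era replicate 1 and -0.18 without Era+VK replicate 2.

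Other genes of tRNA charging and delivery were taken as a list of 20, of which 19 passed the minimum. Of these, 10 had a negative and 9 a positive log2 fold change, with a median of -0.001. One was called: XPOT, the exportin that carries tRNA out of the nucleus, at 28.09, 29.56 and 28.57 FPKM in Era and 19.24, 19.82 and 22.07 FPKM in Era+VK (log2 fold change -0.48, standard error 0.057, limma adjusted p = 0.0198). AARSD1, an alanyl editing protein, and GATB, a subunit of the amidotransferase that makes mitochondrial glutaminyl-tRNA, were lower without overlap, with log2 fold changes of -0.27 and -0.19 (limma adjusted p = 0.163 and 0.212). So were DTD1, a proofreading deacylase, at -0.14 and PTRH2, a peptidyl-tRNA hydrolase, at -0.07 (limma adjusted p = 0.306 and 0.558). With XPOT this made 5 of the list lower without overlap and 0 higher, beside 7.04% and 15.1% of all genes tested. The elongation factors that bring charged tRNA to the ribosome, EEF1A1 in the cytosol and TUFM in mitochondria, were at 1674 and 1596 FPKM and at 76.6 and 78.3 FPKM.

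ATF4 itself was at 134.26, 138.59 and 145.67 FPKM in Era and at 88.18, 98.78 and 98.33 FPKM in Era+VK (log2 fold change -0.55, standard error 0.059, limma adjusted p = 0.0128). In a list of ATF4 and targets outside the synthetases, which holds genes that the study picked from these samples and is therefore no independent evidence of direction, 14 of 29 tested genes fell at the threshold, beside 0.484% of all genes tested. The median of the list was -0.39, and 5 of the 29 had a positive log2 fold change, the highest being ATF5 at 0.24 (limma adjusted p = 0.29).

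The genes that were lower without overlap shared their lowest Era+VK library, but not the order of the other Era+VK libraries. Era+VK replicate 1 was the lowest of its group in 9 of 9 called genes and in all 15 of the 38 genes that were lower without overlap, beside 4213 of the 11981 genes tested (35.2%) and 5 of the 16 mitochondrial genes. The share with replicate 1 lowest was not computed for all genes lower without overlap. Whether it is particular to these genes was therefore not tested. Replicate 1 is the Era+VK library without globin transcripts. With it as the sole Era+VK library, the log2 fold changes of the 9 genes ran from -0.92 (GARS1) to -0.37 (NARS1). The median of the cytosolic genes was then -0.40. Larger changes followed from the choice of the lowest library, and 1 library has no spread of its own. These values therefore cannot show whether the calls depend on the globin-bearing libraries. The part of the globin-bearing material in the remaining differences was not tested. Without any 1 of the Era libraries, 0 of the 9 genes passed the limma threshold (adjusted p 0.0619 to 0.145), and all 9 were still lower in Era+VK. In these fits 14 to 15 of the 38 genes were at an unadjusted limma p under 0.05. Of all genes tested, 1018, 852 and 887 were higher by that rule without Era replicate 1, 2 and 3. Those lower were not counted, so the 14 to 15 have no full background.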

How the data were processed

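The deposited values were FPKM per gene, 1 table for each library, and were used as the authors made them. Total RNA was sequenced as paired reads. Per the labels, the submitters' processing notes name cutadapt, HISAT2 and StringTie 2.1.6, and the mouse build mm10, whereas the gene identifiers are human, so the build used stays unsettled. FPKM values did not step in whole reads, so no count test was run and no counting interval can be given.

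Groups came from the labelled treatments. Genes whose mean level across all 6 libraries reached 1 FPKM were tested on log2(FPKM + 1) with limma 3.58.1 in R 4.3.3 (trended empirical Bayes, two-sided, Benjamini-Hochberg over 11981 genes, threshold 0.05), after the script was tested on simulated data. An exact permutation test of 3 against 3 cannot go below 0.1 and was not used. Genes past the threshold and the 5 next largest changes are given in full, and the rest in ranges. Other pseudocounts, filters and scalings, a replicate block and left-out libraries were tried. Members and lists were chosen with earlier results of these data known. Gene positions are those of GENCODE 29 (GRCh38), matched by identifier for 38 of 38 genes, and promoter windows are from RefSeq. Some genes of the charging and marker lists are not reported here.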

Additional observations from a re-analysis of the deposited data

How the results depend on the processing

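None of the 9 called genes changed sign under any of the 13 alternatives. With no filter on low genes (31325 tested) 0 of the 38 and so 0 cytosolic genes were called (adjusted p of the 9 from 0.0658 to 0.152). In that fit 15 of the 38 were at an unadjusted limma p under 0.05. Of all genes 1742 were higher by that rule, and those lower were not counted. The counts ranged from 0 to 8 when 1 library was left out, 0 without any Era replicate, and 8, 8 and 6 without Era+VK replicate 1, 2 and 3. CARS1, EPRS1 and LARS1 were called as well with at least 1 FPKM in every library and with quantile normalization. Over all genes, those called lower numbered 1 with no filter, 89 with at least 1 FPKM in every library, 96 with quantile normalization and 2 to 47 with 1 library left out. Those called higher numbered 0 with no filter (1742 at an unadjusted p under 0.05), 33 with at least 1 FPKM in every library, 7 without both globin-bearing libraries and 0 to 31 with 1 library left out. The replicate numbers were not shown to pair the samples (correlations of same-numbered deviations 0.0709, 0.103 and 0.021, and Era replicate 3 correlated best with Era+VK replicate 1), and with the replicate block 37 genes were called lower and 5 higher, 8 of the 9 among them, NARS1 excepted.

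The median log2 fold change without both globin-bearing libraries was -0.3996 for the cytosolic, 0.0373 for the mitochondrial and -0.2397 for the scaffold genes and 0.0255 for all genes. Quantile normalization gave -0.0316 for the mitochondrial and 0.0048 for all genes, no filter 0.0079 for all genes, and leaving out 1 library -0.0248 to 0.0182 for the mitochondrial genes. Of the genes that were not called, 14 changed sign under some alternative, all but VARS2 (-0.39) from a value near 0. With quantile normalization these were FARSB (-0.012), AARS2 (-0.0157), CARS2 (-0.0214), HARS2 (-0.013), PARS2 (-0.0114) and SARS2 (-0.0065), and without both globin-bearing libraries RARS1 (-0.0179), AARS2 (-0.0503), VARS2 (0.0664), WARS2 (0.125) and YARS2 (0.0836). Leaving out 1 library gave FARSA -0.077 to 0.0118, FARSB -0.007 to 0.0399, HARS1 -0.0273 to 0.0239, RARS1 -0.0318 to 0.039, AARS2 -0.0121 to 0.057, CARS2 -0.00704 to 0.0455, HARS2 -0.0281 to 0.0704, IARS2 -0.0281 to 0.0349, PARS2 -0.0305 to 0.0568, RARS2 -0.0682 to 0.0072, SARS2 -0.0326 to 0.119, WARS2 -0.0863 to 0.0541 and YARS2 -0.0464 to 0.0222. The cause was not tested.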
